A study of Homo sapiens with 19 samples.

Results

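The genes examined were 10 AP-1 and immediate early genes: FOS, FOSB, FOSL2, JUN, JUNB, JUND, ATF3, BATF, EGR1 and EGR2. They were taken by name as a fixed list, and all 10 were found among the 20007 protein-coding genes of GENCODE release 44. For each, the base pairs (bp) under peaks within 10 kb and within 2 kb of the transcription start site (TSS) were summed in every library. The wide window is 20001 bp long and the narrow one 4001 bp.

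The libraries came from MOLM-13, an established human acute myeloid leukaemia line, and were made by CUT&RUN, in which an antibody directs a nuclease to cut out the chromatin fragments that carry a mark. The series compared vehicle (DMSO) with Corin, a dual inhibitor of the CoREST complex that blocks its demethylase, LSD1, and its histone deacetylases. Treatment lasted 24 h. The dose given for Corin is 0.1 µM, and the label of the DMSO libraries carries the same figure, whose meaning there is unclear. The marks were H3K27ac (acetylation of active promoters and enhancers), H3K4me2 (methylation of promoters and enhancers, which LSD1 removes) and H3K4me3 (mostly at promoters), with 2 libraries per mark and treatment, 12 in all. A further 7 of the 19 libraries of the series were not analysed here: 4 of cells that received Corin together with all-trans retinoic acid, 1 made with an LSD1 antibody and 2 IgG controls. Whether the deposited peaks were called against the IgG libraries is not given in the sources used here. Nothing says that the libraries of a group came from separate cultures, so their spread may be technical, and p-values measure that spread alone. In bulk libraries, more cells carrying a mark and more of the mark per cell cannot be told apart.

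AP-1 is a dimer of basic leucine zipper proteins in which a FOS, ATF or BATF protein usually pairs with a JUN protein and binds DNA at short palindromic sites. Immediate early genes, the EGR zinc finger factors among them, are transcribed within minutes of a growth factor, cytokine or stress signal, without new protein synthesis, because serum response factor and CREB-type factors already sit at their promoters. In myeloid cells, AP-1 and EGR factors take part in monocyte and macrophage differentiation. The marks read here report the state of chromatin around these genes and not their RNA.

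The deposited lists were longer after Corin. H3K27ac lists held 30029 to 34424 peaks after Corin and 17599 to 19995 after DMSO, H3K4me2 lists 40042 to 41152 and 30896 to 32299, and H3K4me3 lists 11757 to 11883 and 11104 to 11343. Read depth is unknown beyond a labelled minimum of 5000000 reads, and its part in any difference below was not tested. An H3K4me3 peak within 2 kb of the TSS was present in all 4 H3K4me3 libraries at 8 of 12 genes that mark this kind of leukaemia (CD33, SPI1, CEBPA, FLT3, HOXA9, MEIS1, LYZ and PTPRC). MPO, ITGAM and CSF1R had none and CD14 had 1, in Corin replicate 1. The summed length over these markers was 15068 to 17116 bp per library. Of 9 genes that mark T, B, erythroid, epithelial or liver cells, 0 had such a peak in any library.

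Without Corin the 10 genes differed widely in acetylation. In DMSO, H3K27ac within 10 kb averaged 4977.5 ± 377 bp (SD, n = 2) at JUNB, 2673 ± 137 bp at JUND, 1243.5 ± 296 bp at EGR1, 995 ± 15.6 bp at FOSL2, 344.5 ± 487 bp at FOS and 313 ± 123 bp at BATF. FOSB, JUN, ATF3 and EGR2 had no H3K27ac peak in either DMSO library around the record start. At its canonical TSS, 43427 bp inside the record, ATF3 had 0 bp in DMSO replicate 1 and 849 bp in DMSO replicate 2. The ranges of JUNB, JUND and EGR1 did not overlap, those of EGR1 and FOSL2 nearly touched, and those of FOS and BATF overlapped. H3K4me2 was present at all 10 genes in every library. Its DMSO means ran from 2122 ± 297 bp at ATF3 to 9369 ± 885 bp at JUNB, with FOS next at 6900 ± 462 bp. At the canonical TSS of ATF3 the DMSO libraries had 2683 and 3179 bp of H3K4me2. H3K4me3 was widest at FOSL2 (6067 ± 1.41 bp) and JUNB (5777.5 ± 152 bp), and least at JUN (412 ± 583 bp).

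After Corin, mean H3K27ac coverage was 2133 to 3336.5 bp above that of DMSO at FOS, FOSL2, JUNB and JUND, and 96 to 357.5 bp above it at FOSB, ATF3, BATF and EGR1, and none of these differences passed limma after adjustment. FOS, FOSL2, JUNB, JUND and BATF had more H3K27ac within 10 kb in both Corin libraries than in both DMSO libraries, which is 5 of the 8 members covered in at least 1 library. The same held for 54.6% of all 10529 covered genes, so this count is close to the background. By size the members formed a high and a low set. Of all covered genes, 95.0% to 98.7% had smaller differences than FOS, FOSL2, JUNB and JUND, and 13.9% to 42.4% had smaller ones than FOSB, ATF3, BATF and EGR1. The median over the 8 was 1245.2 bp and over all covered genes 445 bp, but the median falls in the gap between EGR1 (357.5 bp) and FOSL2 (2133 bp) and is near the value of no member. In the low set, ATF3 turned from 327.5 to -321 bp at its canonical TSS. Leaving out 1 library moved EGR1 to as little as 148 bp and as much as 567 bp and BATF from 193.5 to as little as 106.5 bp. Around the record start, the only peaks of FOSB and ATF3 were in Corin replicate 2. Their differences stood at 192 and 655 bp without Corin replicate 1.

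By limma, adjusted over all covered genes, 0 of the 8 members passed 0.05 in H3K27ac within 10 kb, and 0.171% of all covered genes did. At an unadjusted p under 0.05 there were 4 (FOS, FOSL2, JUNB and JUND), beside 24.0% of covered genes. When replicate number was added as a block, limma called FOS, FOSL2 and JUND, beside 13.5% of covered genes. The blocked fit leaves 1 residual degree of freedom per gene, so its calls rest on the spread shared across genes. The exact two-sided permutation test of 2 libraries against 2 cannot give a p below 0.333, which is the value of every member whose groups did not overlap.

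**Figure D1:**
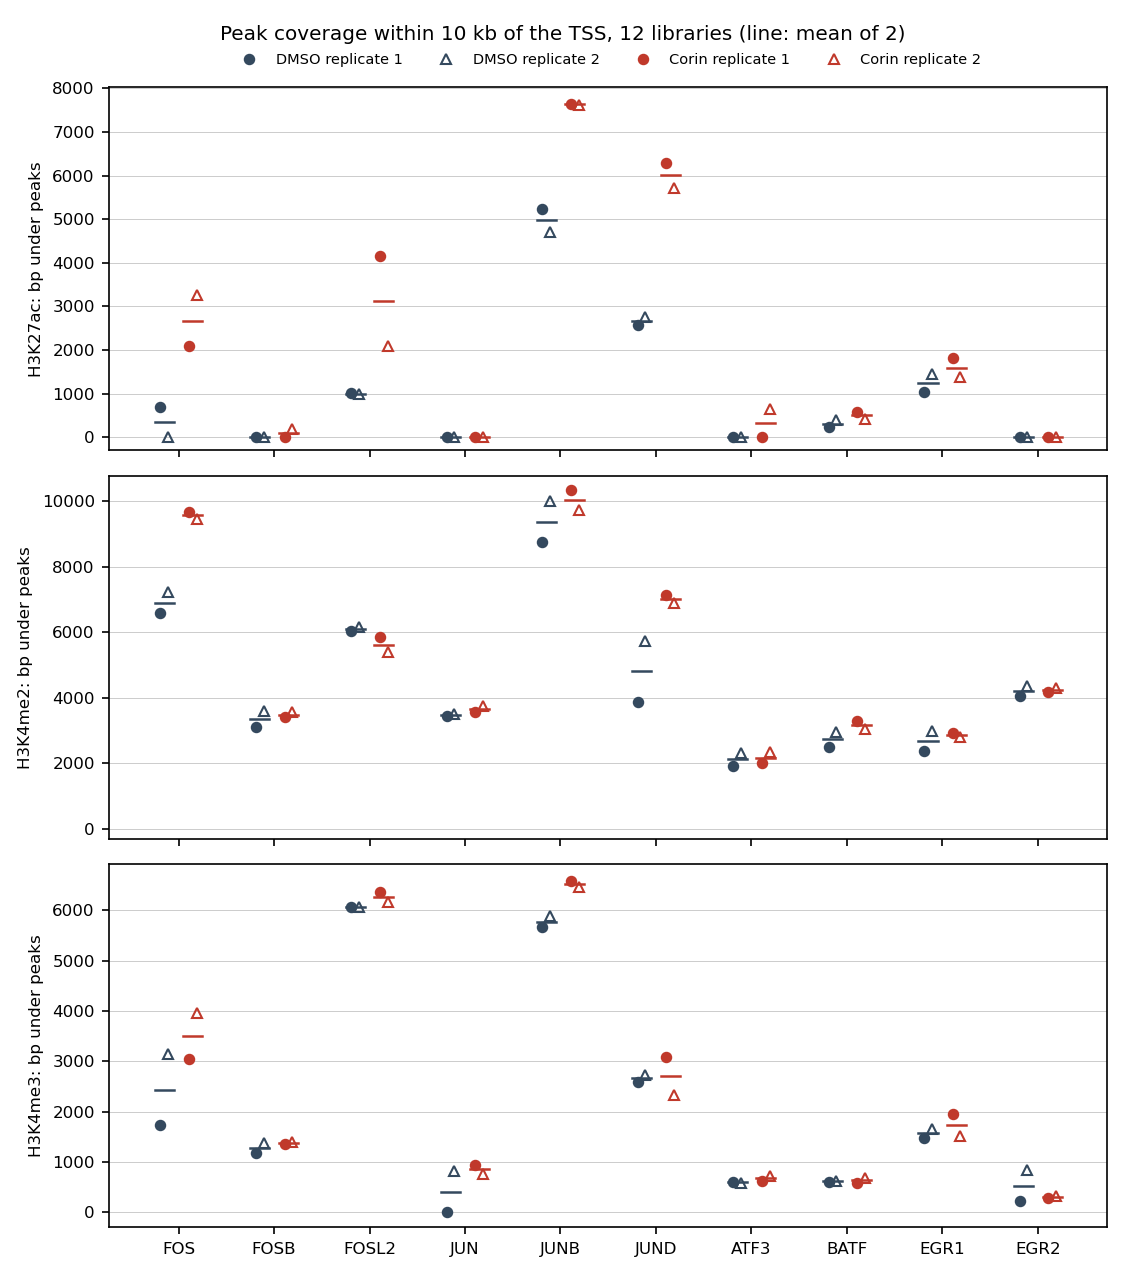
Base pairs under peaks within 10 kb of the TSS (vertical axes, 1 panel per mark) for each of the 10 genes, with DMSO in dark blue, Corin in red, replicate 1 as filled circles, replicate 2 as open triangles and the mean of each group as a line. In H3K27ac the Corin libraries of FOS, FOSL2, JUNB and JUND lie well above the DMSO libraries, and JUN and EGR2 stay at 0; in H3K4me2 the groups stand apart most at FOS and JUND.

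FOS (ENSG00000170345.10, chromosome 14, 75278826 to 75282230, plus strand) encodes the founding FOS protein, which needs a JUN partner to bind DNA. H3K27ac peaks within 10 kb covered 2090 and 3260 bp in Corin replicates 1 and 2, and 689 and 0 bp in DMSO replicates 1 and 2. Both Corin libraries stood above both DMSO libraries, and DMSO replicate 2 had no peak at all. The means were 2675 ± 827 bp and 344.5 ± 487 bp (SD, n = 2), a difference of 2330.5 bp with a standard error of 487 bp (limma adjusted p = 0.0559; with the replicate block, adjusted p = 5.41e-05). At a matched number of peaks per list the difference was 2205.5 bp (limma adjusted p = 0.279).

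Most of the FOS acetylation lay downstream of the gene, not at its promoter. Within 2 kb of the TSS the 4 values were 0 and 837 bp with Corin and 201 and 0 bp with DMSO, and the groups overlapped. A region present in both Corin libraries and in neither DMSO library is called gained here, and FOS had 3 gained H3K27ac regions. They lay 4507 to 4750, 5432 to 5781 and 7606 to 8504 bp past the TSS, in intergenic sequence (chromosome 14, 75283333 to 75283576, 75284258 to 75284607 and 75286432 to 75287330). The widest was covered over 872 bp in Corin replicate 1 and 755 bp in Corin replicate 2. A neighbouring region 8936 to 9710 bp past the TSS was present in Corin over 602 and 692 bp, and in DMSO replicate 1 over 488 bp.

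H3K4me2 at FOS also differed between treatments. Peaks within 10 kb covered 9673 and 9457 bp with Corin and 6573 and 7227 bp with DMSO. The nearest Corin and DMSO libraries stood 2230 bp apart, whereas those of the same treatment differed by 216 and 654 bp. The difference was 2665 bp with a standard error of 480 bp (limma adjusted p = 0.11; with the replicate block, adjusted p = 0.0217), and it was 2192 bp at a matched number of peaks (limma adjusted p = 0.269). Within 2 kb the coverage was 3689 to 4001 bp in all 4 libraries, nearly the whole 4001 bp window. The additional H3K4me2 lay outside that window, chiefly 4301 to 2919 bp before the TSS, where Corin libraries had 1209 and 1255 bp and DMSO libraries 0 and 318 bp, and 3876 to 5795 bp past it, with 1913 and 1475 bp against 864 and 1322 bp. The only H3K4me2 region gained at any of the 10 genes was 298 bp wide and lay 3375 to 3672 bp past the FOS TSS. The first 2 gained H3K27ac regions listed above lay where H3K4me2 was present in all 4 libraries, and the widest had H3K4me2 in Corin replicate 2 alone. H3K4me3 within 10 kb was 3046 and 3959 bp with Corin and 1733 and 3138 bp with DMSO, with overlap.

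The FOS promoter is shown because it is a textbook immediate early promoter, and because H3K4me2 peaks covered all 300 bp of the stretch shown in each of the 4 libraries. H3K27ac overlapped it over 236 bp in Corin replicate 2 and 201 bp in DMSO replicate 1, and in neither of the other libraries. The stretch is chr14:75278504-75278803 of hg38, plus strand, just before the TSS. Capitals mark, in order, a CArG box (the site of serum response factor), a TGACGT core of the cyclic AMP response element (CRE) and a TATAAA box.
FOS promoter: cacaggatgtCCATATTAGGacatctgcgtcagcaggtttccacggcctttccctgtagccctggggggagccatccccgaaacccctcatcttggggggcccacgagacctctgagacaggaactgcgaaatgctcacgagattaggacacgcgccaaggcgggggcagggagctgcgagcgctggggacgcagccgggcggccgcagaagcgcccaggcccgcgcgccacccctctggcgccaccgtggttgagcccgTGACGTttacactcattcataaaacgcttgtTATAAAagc

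FOSB (ENSG00000125740.15, chromosome 19, 45467995 to 45475179, plus strand) encodes a close relative of FOS. Its only H3K27ac peak was 192 bp wide, 246 to 55 bp before the TSS in Corin replicate 2, and the other 3 libraries had none. H3K4me2 within 10 kb was 3412 and 3568 bp with Corin and 3098 and 3604 bp with DMSO, and H3K4me3 was 1359 and 1406 bp against 1181 and 1369 bp. Both marks overlapped between treatments. FOSB lies inside the record of ERCC1, a DNA repair gene on the opposite strand, so peaks there cannot be given to FOSB alone.

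FOSL2 (ENSG00000075426.12, chromosome 2, 28392448 to 28417317, plus strand) encodes FRA2, a FOS-related protein without the strong activation domain of FOS. H3K27ac within 10 kb was 4151 and 2105 bp with Corin and 1006 and 984 bp with DMSO. The DMSO libraries were nearly equal and the Corin libraries were not, yet even the lower one was above both DMSO libraries. The difference was 2133 bp with a standard error of 644 bp (limma adjusted p = 0.107; with the replicate block, adjusted p = 0.00268), and 1484.5 bp at a matched number of peaks (limma adjusted p = 0.338). Without Corin replicate 1 it was 1110 bp. Within 2 kb of the TSS, Corin had 1984 and 1008 bp and DMSO had 0 and 0 bp (limma adjusted p = 0.113; with the replicate block, adjusted p = 0.000639).

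The change within 2 kb came with a gained H3K27ac region over the FOSL2 TSS itself, from 144 bp before it to 731 bp past it (chromosome 2, 28392304 to 28393179), covered over 848 and 737 bp. In DMSO, H3K27ac at FOSL2 was found only further inside the gene, in a region 1730 to 4066 bp past the TSS that all 4 libraries shared. The gained region lay inside an H3K4me3 domain that was 6366 and 6176 bp wide after Corin and 6066 and 6068 bp after DMSO, 1 unbroken peak in each library, at or above 89.4% of its list by score.

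FOSL2 was the only member with less H3K4me2 in both Corin libraries than in both DMSO libraries. Within 2 kb the values were 2280 and 2545 bp with Corin and 3270 and 3294 bp with DMSO, a difference of -869.5 bp with a standard error of 173 bp (unadjusted p = 0.00644, adjusted p = 0.589 by limma). That is 1 of 10 members, beside 7.0% of covered genes lower without overlap and 0.865% lower at an unadjusted p under 0.05. Within 10 kb the groups were 5843 and 5392 bp against 6034 and 6150 bp, a difference of -474.5 bp that was -249 bp without Corin replicate 2. Between 281 and 944 bp past the TSS a narrow H3K4me2 peak of 311 bp occurred in DMSO replicate 2 alone, and after Corin the gap ran on further into the gene, as the map of its peaks shows. Inside the gained H3K27ac region H3K4me3 covered all 876 bp in every library, while H3K4me2 covered 198 and 426 bp with Corin and 403 and 683 bp with DMSO.

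The 250 bases before the RefSeq TSS of FOSL2 are shown because the gained acetylation covers them (chr2:28392608-28392857, plus strand). The capitals mark a TGACGT core.
FOSL2 promoter: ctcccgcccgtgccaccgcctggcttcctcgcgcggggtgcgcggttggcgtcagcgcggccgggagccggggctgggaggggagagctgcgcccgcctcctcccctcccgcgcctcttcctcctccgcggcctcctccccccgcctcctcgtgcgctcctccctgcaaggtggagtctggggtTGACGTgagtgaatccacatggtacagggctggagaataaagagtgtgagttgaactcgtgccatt

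**Figure D2:**
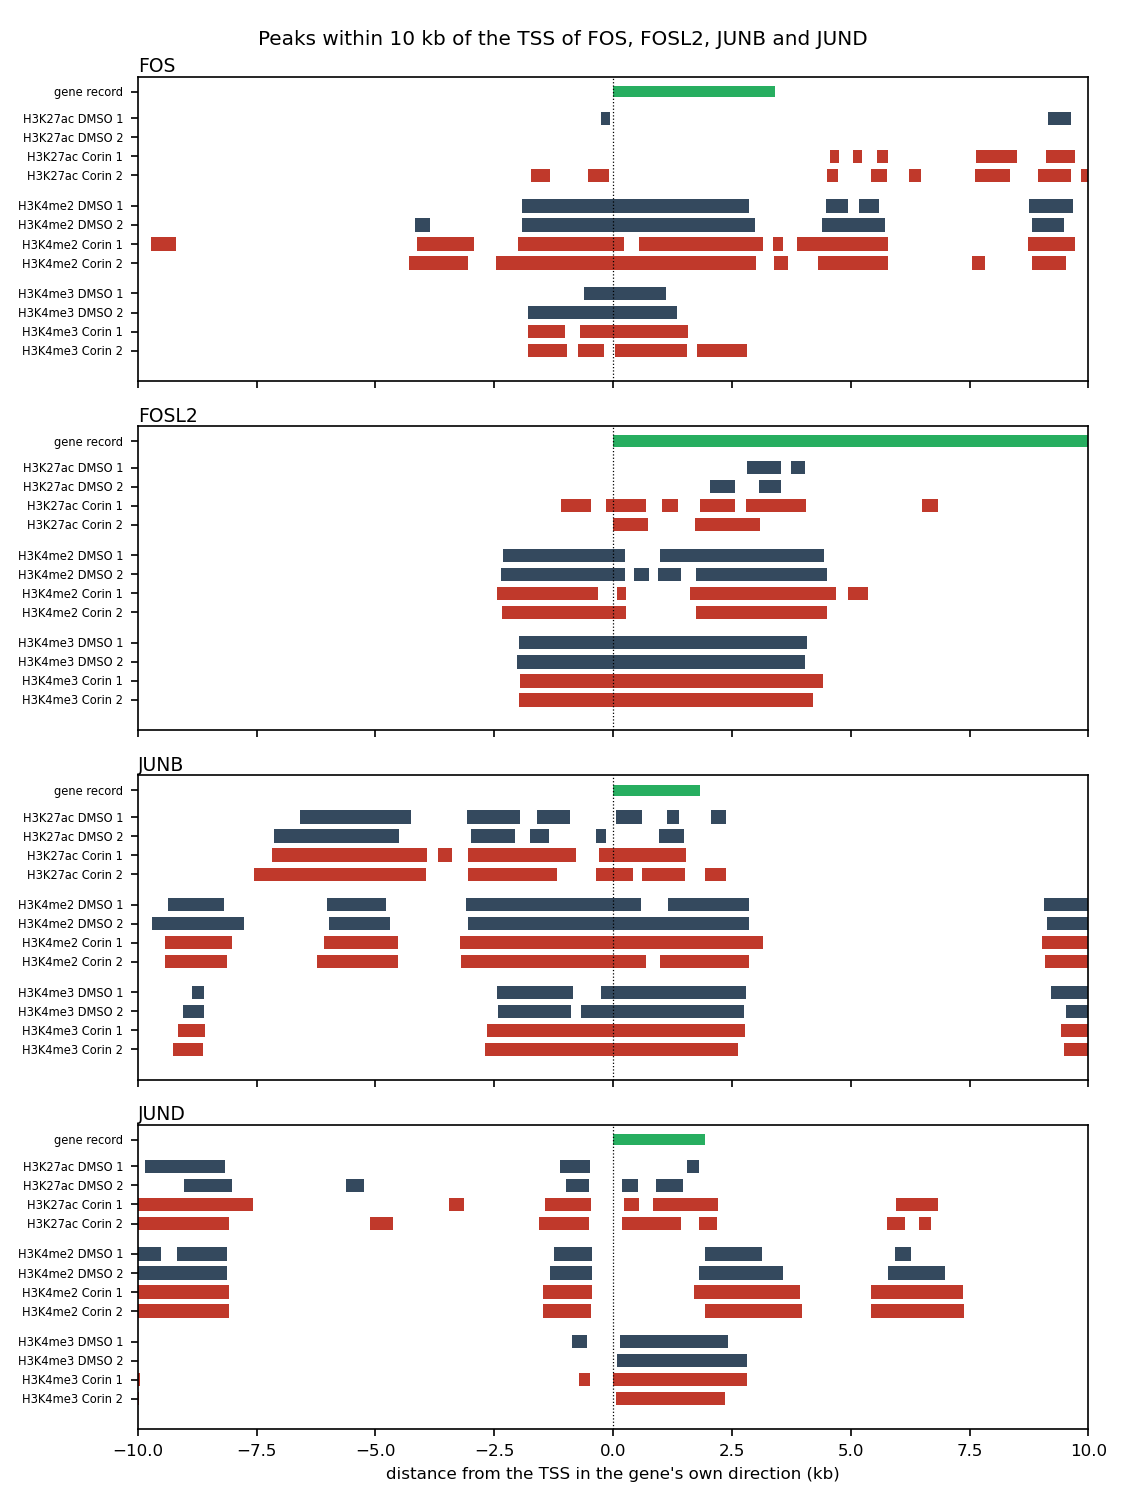
Peaks of the 12 libraries within 10 kb of the TSS of FOS, FOSL2, JUNB and JUND, as bars along the distance from the TSS in kb in the direction of each gene, with DMSO in dark blue, Corin in red and the gene record in green. Corin alone shows H3K27ac between 4507 and 8504 bp past the FOS TSS, over the FOSL2 TSS, and 5773 to 6846 bp past the JUND TSS; JUNB has 3 regions shared by all 4 H3K27ac libraries, covered further after Corin.

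JUN (ENSG00000177606.9, chromosome 1, 58776845 to 58784048, minus strand) encodes the founding JUN protein, which can pair with itself or with FOS proteins. It had no H3K27ac peak within 10 kb in any of the 4 H3K27ac libraries, nor within 50 kb. It nevertheless carried 1 wide H3K4me2 peak over its TSS in each library, 3577 and 3763 bp with Corin and 3457 and 3498 bp with DMSO. These peaks scored at or above 97.5% to 99.2% of the peaks of their own lists. Both Corin values were above both DMSO values, by a difference of 192.5 bp with a standard error of 292 bp (limma adjusted p = 0.845), which was 99.5 bp without Corin replicate 2. H3K4me3 was sparse, at 943 and 761 bp with Corin and 0 and 824 bp with DMSO, and its best peak stood at or above 11.5% to 22.3% of its list in the 3 libraries that had one.

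The JUN promoter is shown because it holds a variant of the AP-1 site, TGACATCA, through which JUN is known to act on its own gene (chr1:58784048-58784297, minus strand, 250 bases before the RefSeq TSS). The match, in capitals, lies 67 to 60 bases before the TSS.
JUN promoter: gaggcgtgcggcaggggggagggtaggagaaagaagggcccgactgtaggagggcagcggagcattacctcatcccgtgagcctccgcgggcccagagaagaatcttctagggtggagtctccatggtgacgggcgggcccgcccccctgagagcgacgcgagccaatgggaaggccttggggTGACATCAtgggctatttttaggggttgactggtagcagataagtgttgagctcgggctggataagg

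JUNB (ENSG00000171223.6, chromosome 19, 12791486 to 12793315, plus strand) encodes a JUN protein that often restrains proliferation and is prominent in myeloid cells. It had the most H3K27ac of the 10 genes under both treatments, with 7643 and 7618 bp with Corin and 5244 and 4711 bp with DMSO within 10 kb. The Corin libraries differed by 25 bp and both stood far above the DMSO libraries. The difference was 2653 bp with a standard error of 968 bp (limma adjusted p = 0.148; with the replicate block, adjusted p = 0.0973), and 2010.5 bp at a matched number of peaks. Within 2 kb the values were 3059 and 2571 bp against 1517 and 1151 bp, a difference of 1481 bp (limma adjusted p = 0.113; with the replicate block, adjusted p = 0.00687).

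No H3K27ac region was gained at JUNB with presence set at an overlap of 1 bp, although JUNB counted as gained with presence at 50% of a region covered, beside 14.7% of protein-coding genes, and without Corin replicate 2, beside 23.5%. At JUNB, 3 regions present in all 4 libraries were covered further after Corin. The one spanning the TSS, from 359 bp before to 1544 bp past it, had 1848 and 1684 bp with Corin and 778 and 751 bp with DMSO. The TSS itself lay under a peak in both Corin libraries and in neither DMSO library. The widest, 7562 to 3914 bp before the TSS, had 3257 and 3633 bp with Corin and 2349 and 2636 bp with DMSO, and lies within the long record of HOOK2, which spans JUNB on the opposite strand. The region between them had 2256 and 1860 bp against 1804 and 1324 bp. H3K4me2 within 10 kb overlapped between treatments (10350 and 9714 bp against 8743 and 9995 bp). H3K4me3 did not (6590 and 6474 bp against 5670 and 5885 bp), with a difference of 754.5 bp (limma adjusted p = 0.663). At a matched number of peaks this difference was 435.5 bp (limma adjusted p = 0.932) and the groups overlapped, with 6590 and 5836 bp against 5670 and 5885 bp. The 10 kb values of both methylation marks take in the start of a region that spans the TSSs of PRDX2 and THSD8. These lie 10314 and 10545 bp past the JUNB TSS, so those values cannot be given to JUNB alone.

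JUND (ENSG00000130522.6, chromosome 19, 18279694 to 18281622, minus strand) encodes the JUN protein that most cells make without a stimulus. It had the largest H3K27ac difference of the 10 genes within 10 kb. Within 2 kb, FOSL2 (1496 bp) and JUNB (1481 bp) had larger differences than JUND (1309 bp). Coverage within 10 kb was 6298 and 5721 bp with Corin and 2576 and 2770 bp with DMSO. Each Corin library held more than the 5346 bp of both DMSO libraries summed. The difference was 3336.5 bp with a standard error of 724 bp (limma adjusted p = 0.0569; with the replicate block, adjusted p = 0.00648), and 2641 bp at a matched number of peaks (limma adjusted p = 0.3). Within 2 kb it was 2439 and 2471 bp against 898 and 1394 bp (limma adjusted p = 0.127; with the replicate block, adjusted p = 0.0201). H3K4me2 within 10 kb was 7121 and 6901 bp with Corin and 3882 and 5728 bp with DMSO, a difference of 2206 bp with a standard error of 653 bp (limma adjusted p = 0.224; with the replicate block, adjusted p = 0.0402). The lowest value, DMSO replicate 1, lay 1846 bp under the other DMSO library, and without it the difference was 1283 bp. H3K4me3 overlapped between treatments, at 3096 and 2332 bp against 2595 and 2736 bp.

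H3K4me3 peaks at JUND formed a region from the TSS to 2825 bp past it, which reached the TSS itself in Corin replicate 1 alone. No H3K4me2 or H3K27ac peak covered the TSS in any library. H3K4me2 lay on both sides of it, 1470 to 442 bp before the TSS and 1703 to 3966 bp past it. The H3K27ac region over the gene body, 194 to 2211 bp past the TSS, was covered over 1680 and 1618 bp with Corin and 256 and 917 bp with DMSO. A gained H3K27ac region lay 5773 to 6846 bp past the TSS, beyond the end of the gene in intergenic sequence (chromosome 19, 18274776 to 18275849), with 904 and 636 bp in the Corin libraries. It begins 276 bp from the TSS of IQCN, which lies 7122 bp downstream of the JUND TSS on the same strand, so it cannot be given to JUND alone. Its H3K4me2 was present in all 4 libraries, over 1074 and 1074 bp with Corin and 328 and 1052 bp with DMSO, and it had no H3K4me3. The JUND window also takes in part of an H3K27ac region 12181 to 7584 bp before the JUND TSS that all 4 libraries shared, with 4598 and 4041 bp with Corin and 3522 and 2812 bp with DMSO over its whole length.

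The JUND promoter (chr19:18281623-18281872, minus strand, 250 bases before the RefSeq TSS) is shown because it is the only member promoter with the full CRE, TGACGTCA, in capitals with a second ACGTCA core nearer the TSS. The 100 bases below it come from the gained region (chr19:18274964-18275063, plus strand), where the capitals mark the AP-1 site TGAGTCA.
JUND promoter: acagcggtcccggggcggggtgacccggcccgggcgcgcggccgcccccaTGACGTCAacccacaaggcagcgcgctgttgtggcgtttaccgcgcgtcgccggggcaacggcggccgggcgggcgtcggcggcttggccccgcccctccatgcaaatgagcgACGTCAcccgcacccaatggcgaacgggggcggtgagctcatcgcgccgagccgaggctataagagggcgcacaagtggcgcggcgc
JUND downstream region: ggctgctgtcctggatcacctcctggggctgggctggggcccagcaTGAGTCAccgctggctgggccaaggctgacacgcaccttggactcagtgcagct

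ATF3 (ENSG00000162772.18, chromosome 1, 212565334 to 212620777, plus strand) encodes a stress-induced factor that often represses as a homodimer. Its record begins 43427 bp before the TSS of its canonical transcript, so both starts were read. At the record start, 1 H3K27ac peak of 655 bp was found, in Corin replicate 2, inside a long non-coding RNA gene on the opposite strand. At the canonical TSS, H3K27ac was 207 and 0 bp with Corin and 0 and 849 bp with DMSO, H3K4me2 was 3261 and 3209 bp against 2683 and 3179 bp, and H3K4me3 was 999 and 1046 bp against 624 and 1715 bp. Only H3K4me2 kept the treatments apart there, by 30 bp between the nearest libraries.

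BATF (ENSG00000156127.8, chromosome 14, 75522455 to 75546993, plus strand) encodes a small AP-1 protein of lymphoid and some myeloid cells that lacks an activation domain. H3K27ac within 10 kb was 1 region, from 12 bp before the TSS to 605 bp past it, with 586 and 427 bp with Corin and 226 and 400 bp with DMSO. A peak covered the TSS itself in Corin replicate 2 alone. The groups were apart by 27 bp, far less than the spread within DMSO (limma adjusted p = 0.624). H3K4me2 was 3309 and 3037 bp against 2513 and 2953 bp, and H3K4me3 589 and 678 bp against 596 and 632 bp.

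EGR1 (ENSG00000120738.8, chromosome 5, 138465479 to 138469303, plus strand) encodes a zinc finger factor that is induced through serum response factor and drives monocytic genes. H3K27ac within 10 kb formed 1 peak just upstream of the TSS in each library, 1808 and 1394 bp with Corin and 1034 and 1453 bp with DMSO. The groups overlapped. So did those of H3K4me2 (2935 and 2795 bp against 2375 and 2991 bp) and H3K4me3 (1952 and 1512 bp against 1478 and 1658 bp). EGR1 thus had acetylation in DMSO, and its groups overlapped in bp covered in all 3 marks. By score, its H3K4me2 peak stood at or above 65.7% and 56.4% of its list with Corin, and 90.8% and 81.8% with DMSO. This difference in score was not tested.

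EGR2 (ENSG00000122877.18, chromosome 10, 62811996 to 62819167, minus strand) encodes a related factor of macrophages, lymphocytes and Schwann cells. Like JUN it had no H3K27ac peak within 10 kb in any library, and it had a wide H3K4me2 peak, 4176 and 4299 bp with Corin and 4071 and 4363 bp with DMSO, at or above 98.7% to 99.7% of the peaks of its list by score. That peak covered the TSS of the canonical transcript, 2801 bp inside the record, around which H3K4me2 within 2 kb was 3448 and 3443 bp with Corin and 3432 and 3469 bp with DMSO. H3K4me3 was limited to short peaks, 277 and 323 bp with Corin and 226 and 836 bp with DMSO. The 4 H3K4me2 values around the record start lay within 292 bp of each other, with a difference of 20.5 bp and a standard error of 320 bp (limma adjusted p = 0.989). Within 10 kb of the canonical TSS they were 5245 and 4715 bp with Corin and 5338 and 5236 bp with DMSO, and the difference turned to -307 bp.

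The promoters of EGR1 and EGR2 are shown together because they share CArG boxes and ACGTCA cores (TGACGT on the other strand) but differed in acetylation. EGR1 is chr5:138465229-138465478 on the plus strand and EGR2 chr10:62816367-62816616 on the minus strand, each 250 bases before a RefSeq TSS, the canonical one for EGR2. Capitals mark in EGR1 an EGR site (GCGNGGGCG), an ACGTCA core, CArG boxes CCATATTAGG and CCATATATGG and another ACGTCA core, and in EGR2 a CArG box CCATATATGG and an ACGTCA core.
EGR1 promoter: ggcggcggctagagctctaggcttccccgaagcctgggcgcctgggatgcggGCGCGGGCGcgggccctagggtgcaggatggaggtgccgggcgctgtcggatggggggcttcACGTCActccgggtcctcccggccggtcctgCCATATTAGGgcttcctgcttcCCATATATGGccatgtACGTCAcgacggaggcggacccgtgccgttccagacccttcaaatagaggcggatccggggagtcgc
EGR2 promoter: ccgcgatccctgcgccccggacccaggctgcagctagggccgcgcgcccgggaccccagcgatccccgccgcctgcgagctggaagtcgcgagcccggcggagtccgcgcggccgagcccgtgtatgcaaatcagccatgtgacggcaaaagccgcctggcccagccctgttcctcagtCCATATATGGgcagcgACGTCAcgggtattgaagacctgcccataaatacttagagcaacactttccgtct

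**Figure D3:**
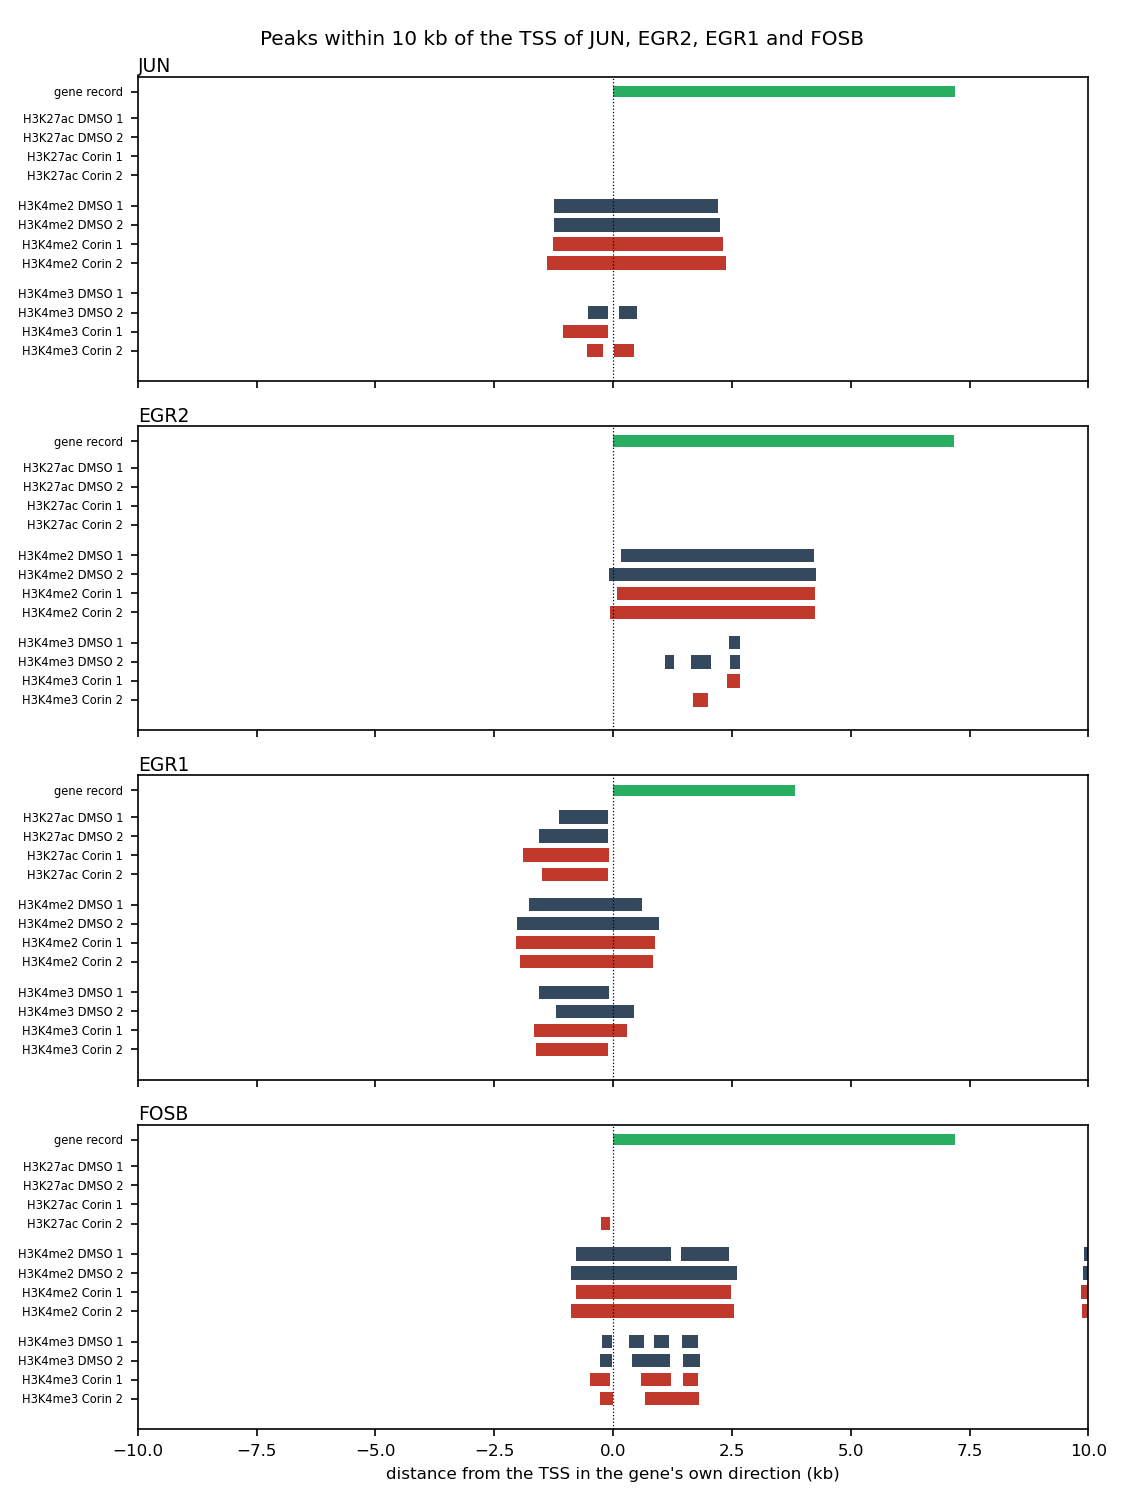
Peaks of the 12 libraries within 10 kb of the TSS of JUN, EGR2, EGR1 and FOSB, drawn along the distance from the TSS in kb, with DMSO in dark blue, Corin in red and the gene record in green. JUN and EGR2 have H3K4me2 blocks of 3457 to 4363 bp and no H3K27ac; EGR1 has H3K27ac in all 4 libraries; FOSB has it in Corin replicate 2 alone.

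RefSeq promoters (GRCh38.p14) were given for all 10 genes, in 13 windows of 250 bases, and were searched on both strands. The TGACGT core occurred in the promoters of 6 members (FOS, FOSB, FOSL2, JUND, EGR1 and EGR2), and in 7.1% of all 35116 RefSeq promoter windows of that length. The full CRE was in 1 member, JUND, and in 1.65% of windows; a TGACGT match is part of every full CRE. CArG boxes were in 2 members, EGR1 and EGR2, and in 1.16% of windows, while that of FOS lies further upstream than 250 bases. TGACATCA was in JUN and ATF3, and in 2.37% of windows. The AP-1 site TGANTCA was in 0 members and in 6.57% of windows, and TATAAA was in 4 (FOS, FOSB, JUNB and an ATF3 window) and in 10.7%. The members are few, the motifs were picked as textbook sites of these genes, and the counts describe letters, not binding.

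Within the 30 H3K27ac regions near the members, the AP-1 site was found in 6, with 8 matches, in FOSL2, JUNB and JUND. These regions are up to 4598 bp wide, and no share over all regions of like width was computed for this count. Of the 5 gained regions, 2 held one: the FOSL2 region with TGACTCA at 28392862 to 28392868, just past the canonical TSS, and the JUND region with TGAGTCA at 18275010 to 18275016. In windows as long as these regions (876 and 1074 bp), centred on all 41587 H3K27ac regions, 26.0% and 30.3% held one, so the presence of a match is common at this length. The 3 gained regions at FOS, 244, 350 and 899 bp wide, held none. In windows of these lengths 8.2%, 11.8% and 26.5% held one.

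Gained H3K27ac regions lay near 3 of the 10 members, FOS, FOSL2 and JUND, and near 10.1% of protein-coding genes. For H3K4me2 it was 1 member (FOS) beside 6.33% of genes, and for H3K4me3 0 members beside 0.81%. Lost regions, present in both DMSO libraries and neither Corin library, lay near 0 members in any mark, and near 27, 44 and 30 of the 20007 genes for H3K27ac, H3K4me2 and H3K4me3. With the window kept at 10 kb, 3 members had one under other settings. EGR2 had a lost H3K4me3 region at a stricter score (beside 0.24% of genes), without Corin replicate 1 (0.605%) and without DMSO replicate 1 (1.05%). Without DMSO replicate 1, JUND had a lost H3K27ac region (beside 3.25%) and FOSL2 a lost H3K4me2 region (beside 2.78%). Of the 5 gained H3K27ac regions, 4 had H3K4me2 in all 4 libraries, that is also in both DMSO libraries, beside 37.9% of the 4798 gained H3K27ac regions of the series, and 1 (FOSL2) had H3K4me3 in all 4 as well, beside 15.8%. The 5 lie within 10 kb of a TSS, whereas these shares are over gained regions at any distance from one. Presence here needs only 1 bp of overlap. The same 3 members had a gained H3K27ac region at a matched number of peaks, beside 2.81% of genes, and at a stricter score, beside 9.5%.

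For H3K4me2 within 10 kb, FOS, JUN, JUND and BATF were higher without overlap, 4 of 10 beside 39.5% of covered genes, and FOSL2 was lower, beside 3.83%. By limma 0 of 10 passed after adjustment, beside 0.156% of covered genes higher, and 2 (FOS and JUND) were higher at an unadjusted p under 0.05, beside 13.7%. With the replicate block limma called FOS and JUND, beside 4.52%. The median difference was 187.25 bp over the members and 233.5 bp over all covered genes. For H3K4me3, FOSL2, JUNB and ATF3 were higher without overlap, 3 of 10 beside 25.7%. At a matched number of peaks JUNB was no longer among these, and at the canonical TSS ATF3 was not. By limma 0 passed after adjustment, beside 0% of genes, or with the replicate block, beside 0.0626%, with JUNB higher at an unadjusted p under 0.05, beside 5.7%. The median H3K4me3 difference was 135.75 bp over the members and 63.5 bp over all covered genes. Within 2 kb, limma called 0 members in any mark, beside 0% of genes, and with the replicate block it called FOSL2, JUNB and JUND in H3K27ac, beside 6.49%. At an unadjusted p under 0.05 these 3 were also higher in H3K27ac within 2 kb, beside 17.0%, and 0 members were higher in H3K4me2, beside 5.7%, or in H3K4me3, beside 4.58%.

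**Figure D4:**
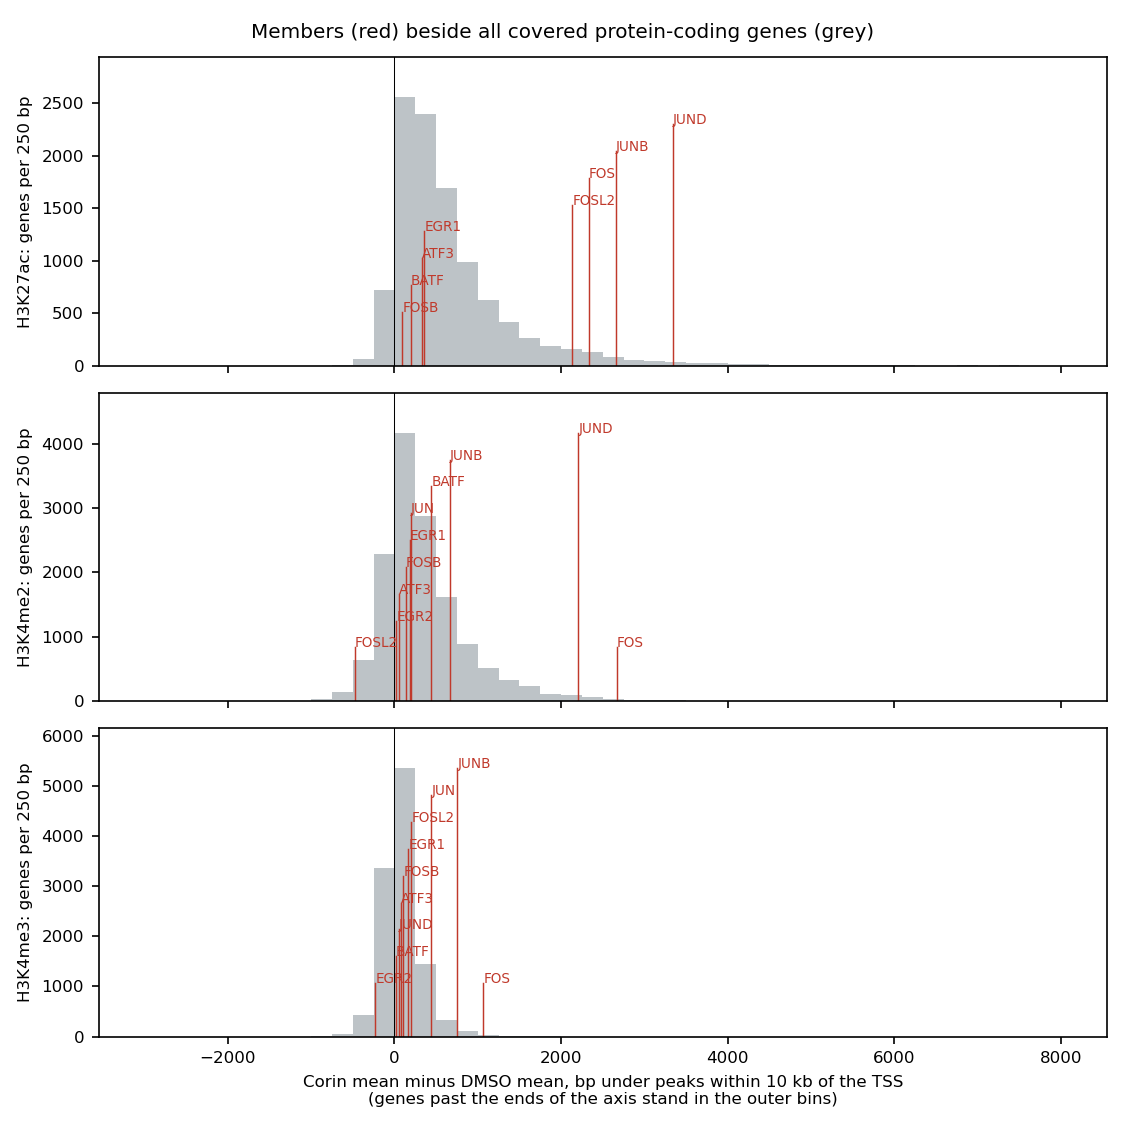
Corin mean minus DMSO mean of bp under peaks within 10 kb of the TSS (horizontal axis), with all covered protein-coding genes as grey bars of 250 bp and the members as red lines, whose heights are arbitrary. In H3K27ac, FOS, FOSL2, JUNB and JUND lie between 2133 and 3336.5 bp and the other covered members at 357.5 bp or less; in H3K4me2, FOS and JUND stand at 2665 and 2206 bp and FOSL2 at -474.5 bp.

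Other genes of the pathway were read from 4 lists. Beside their limma counts without the block stand 0.171% of covered genes called in H3K27ac and 0.156% in H3K4me2 within 10 kb. Among 16 other AP-1 and bZIP partners, 11 were covered in H3K27ac within 10 kb and 6 were higher without overlap, beside 54.6% of covered genes, with a median difference of 617.5 bp beside 445 bp over all covered genes. limma called 0 of them, and 4 with the replicate block, beside 13.5% of covered genes, led by MAFG (4110.5 bp, adjusted p = 0.00262), FOSL1 (2955.5 bp, adjusted p = 0.00255), which encodes FRA1, and ATF1 (1805.5 bp, adjusted p = 4.93e-05). In ATF1, a CREB relative, Corin had 2029 and 1582 bp and both DMSO libraries had 0 bp. For H3K4me2, 4 of the 16 partners were higher without overlap, beside 39.5% of covered genes, and 0 lower, beside 3.83%. Their median was 111.5 bp, beside 233.5 bp over all covered genes. limma called 0 of them, beside 0.156%, and 0 with the replicate block, beside 4.52%.

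Of 28 other immediate early genes, 22 were covered in H3K27ac and 10 were higher without overlap, again beside 54.6%, with a median of 366.25 bp. limma called 0, and 5 with the replicate block, beside 13.5%, led by ZFP36L2 (4633.5 bp, adjusted p = 0.000347) and ZFP36 (4179.5 bp, adjusted p = 0.0334), which encode proteins that destabilise AU-rich mRNAs, and IER2 (2415.5 bp, adjusted p = 0.0134). In H3K4me2, 21 of 27 were higher without overlap, beside 39.5% of covered genes, and 1 lower, beside 3.83%, with a median of 643.5 bp beside 233.5 bp over all covered genes, and 0 were called by limma and 2 with the replicate block, beside 4.52% (IER2 and DUSP4, a phosphatase of MAP kinases). Of 20 upstream factors and kinases, 10 of 16 covered were higher without overlap in H3K27ac, beside 54.6%, with a median of 504.75 bp. limma called 0 of them, and 3 with the replicate block, beside 13.5%: NAB2 (2422 bp, adjusted p = 0.000827), a co-repressor of EGR factors, SRF (1121.5 bp, adjusted p = 0.0192), the serum response factor, and MAPK8 (865 bp, adjusted p = 0.0203), the JNK1 kinase. In H3K4me2, 7 of the 20 were higher without overlap, beside 39.5%, and 1 lower, beside 3.83%, with a median of 274 bp. limma called 0 of them, and 1 with the replicate block, beside 4.52%: MAPK14 (2023.5 bp, adjusted p = 0.0281), the p38 alpha kinase.

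Genes known to respond to AP-1 or EGR factors had the largest H3K4me2 differences of these lists. Of 16, 14 were covered within 10 kb, 12 were higher without overlap, beside 39.5% of covered genes, and 1 lower, beside 3.83%, and the median was 1453.8 bp beside 233.5 bp over all covered genes. limma called 1, CCL2, beside 0.156%, and with the replicate block 8, beside 4.52%. CCL2, a monocyte chemokine, had 3241 and 3054 bp with Corin and 367 and 290 bp with DMSO, a difference of 2819 bp with a standard error of 220 bp (limma adjusted p = 0.0476; with the replicate block, adjusted p = 7.65e-05). That call was lost at the canonical TSS (limma adjusted p = 0.0508), on the log2 scale (0.0998), at a stricter score (0.142), at a matched number of peaks (0.228) and with any 1 library left out (0.344 to 0.732). PLAU, which encodes urokinase, had a difference of 2803 bp and IL1B, the interleukin, 2667.5 bp (with the replicate block, limma adjusted p = 0.0159 and 0.00062). In H3K27ac 9 of 11 covered were higher without overlap, beside 54.6%, with a median of 1001 bp, and limma called 0 and with the replicate block 4, beside 13.5%, led by FTH1 (2112.5 bp), VIM (1803.5 bp) and THBD (1653 bp). This list was drawn up with earlier results of these data known, and its medians are a description.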

How the data were processed

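CUT&RUN was run on MOLM-13 cells, and 12 peak lists, 1 per library, were analysed. Per the submitters' processing notes, Trim Galore, Bowtie2, Picard and MACS2 were used with GRCh38/hg38; versions, controls and thresholds are not given in the sources used here. Each peak has a score that the authors deposited, a whole number not under 50 and of no stated definition, which served to order peaks inside 1 list. The positions deposited by the authors, here counted from 1, fitted hg38, with 0 of 292523 peaks past a chromosome end.

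The TSS was the 5′ end of the GENCODE 44 gene record. Base pairs under peaks were compared per mark with limma 3.58.1 (R 4.3.3, trended robust eBayes) over genes covered in at least 1 of the 4 libraries, with Benjamini-Hochberg adjustment over all of them at 0.05, and checked on simulated data. The departures from the group means correlated between Corin and DMSO libraries of like number at 0.213 (H3K27ac), 0.23 (H3K4me2) and 0.203 (H3K4me3) over 20007 genes, so the replicate numbers were taken to pair the libraries. With 2 libraries against 2, each mark gives only 1 independent correlation, and no label explains what the numbers stand for, so the pairing behind every blocked value is weakly supported. Peaks of a mark were merged into union regions, with presence at an overlap of 1 bp. Bases came from hg38 and RefSeq promoter tables. Python 3.11.15 was used for all else.

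The members and gene lists were chosen with earlier results of these data known. All 10 members were named, from each list up to 3 called genes with the largest difference, and each member's most alike gene.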

Additional observations from a re-analysis of the deposited data

How the results depend on the processing

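The number of members past the threshold depended on how the spread was estimated. In H3K27ac within 10 kb it was 0, and 3 (FOS, FOSL2 and JUND) with the replicate block, the libraries being paired by number, and 3 without the filter on uncovered genes. In H3K4me2 within 10 kb it was 0, and 2 (FOS and JUND) under both of these. In H3K27ac within 2 kb it was 0, and 3 (FOSL2, JUNB and JUND) with the replicate block, while the fit without the filter could not be fitted there. The block changed no other member's call. Counts over all genes moved likewise: 18 genes were called in H3K27ac within 10 kb, 1426 with the block, 1362 without the filter and 0 at a matched number of peaks, a stricter score (at least 100), the canonical TSS and on the log2(bp + 200) scale. For H3K4me2 within 10 kb these counts were 22, 637, 863 and 0, and for H3K4me3 0, 7, 261 and 0. Within 2 kb, where 0 genes were called, H3K27ac had 586 with the block and 1 with the canonical TSS, and without the filter H3K4me2 had 197 and H3K4me3 174.

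Leaving out 1 library in turn gave 0 to 2 called members for H3K27ac within 10 kb and 0 to 1 within 2 kb. The calls were FOSB and ATF3 without Corin replicate 1, where 2 DMSO values of 0 give almost no spread, and 1044 genes were then called within 10 kb (1207 without Corin replicate 2, and 0 without either DMSO library); within 2 kb the counts were 900 and 1051. Members with a gained region then numbered 3 to 5 for H3K27ac (5 without Corin replicate 1, adding FOSB and ATF3, beside 18.5% of all genes, and 4 without Corin replicate 2, adding JUNB, beside 23.5%, against 10.1% with all libraries), 1 to 2 for H3K4me2 (FOSL2 added without Corin replicate 2, beside 13.8% against 6.33%) and 0 to 1 for H3K4me3 (FOS without Corin replicate 1 and JUN without DMSO replicate 2, each beside 2.34% against 0.81%). With presence at 50% of a region covered, 4 members gained H3K27ac, adding JUNB, beside 14.7% of genes, and 1 member (FOSB) gained H3K4me3, beside 1.22%. In a 50 kb window, chosen after seeing the data, 5 members had a gained H3K27ac region (beside 26.4% of genes), 5 a gained H3K4me2 region (20.6%) and 1 a gained H3K4me3 region (2.19%). Single members' differences in bp took the other sign in 10 cases, beside 26 with 1 library left out. At the canonical TSS within 10 kb, ATF3 turned to -147 bp from 74.5 bp in H3K4me3 and to -321 bp from 327.5 bp in H3K27ac, and EGR2 to -307 bp from 20.5 bp in H3K4me2 (-5 bp from 25.5 bp within 2 kb). At a matched number of peaks, H3K4me3 turned to -100.5 bp from 107.5 bp at FOSB in both windows, and at JUND to -67 bp from 48.5 bp within 10 kb and to -72 bp from 43.5 bp within 2 kb. At a stricter score BATF turned to -275 bp from 19.5 bp in H3K4me3 in both windows. Of 162 values of single members at a matched number of peaks, a stricter score or the canonical TSS, 148 moved by no more than the spread between libraries; the block and the missing filter leave a difference in bp as it is, and a left-out library moves it by no more than that spread by construction. The causes were not tested, and unknown depth limits all of them.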

Other observations

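Within 50 kb of the TSS, a window chosen after the values were seen, a gained H3K27ac region lay near 5 of the 10 genes (FOS, FOSB, FOSL2, JUND and BATF), beside 26.4% of protein-coding genes, and a gained H3K4me2 region near 5 (FOS, FOSB, JUNB, JUND and ATF3), beside 20.6%. FOS had 4 gained H3K27ac regions there, and FOSL2 and JUND 3 each. JUN had 0 H3K27ac regions of any kind within 50 kb, and EGR2 had 1, which was not gained. FOSB was the only member with a region lost in that window, 1 of H3K4me3, beside 0.39% of genes, and it had 1 gained H3K4me3 region as well, beside 2.19%.

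Over the 12 library values of coverage within 10 kb, the genes on other chromosomes most like the members were ARHGAP27 for JUN (mean absolute difference 81 bp), RAB11FIP3 for FOSB (82.33 bp), LDLRAD3 for ATF3 (96.25 bp), KIF26B for EGR2 (119.8 bp), ATG9B for BATF (133.4 bp), OSBPL8 for EGR1 (164.2 bp), PROCA1 for FOSL2 (420.6 bp), TRIM27 for JUND (425.8 bp), NRM for JUNB (469.9 bp) and RPS9 for FOS (688.3 bp).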
